A study of Mus musculus with 1152 samples.

Results

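The 9 genes described here code for transcription factors of the oligodendrocyte lineage: Olig1, Olig2, Sox10, Sox8, Sox6, Nkx2-2, Myrf, Tcf7l2 and St18. They were taken by name from the 46517 genes of a table of read counts, and all 9 were in it. RNA of single cells from adult mouse brain had been measured by SMART-seq2, which copies and amplifies whole transcripts of 1 sorted cell in each well of a plate. Cells of the strain C57BL/6, of both sexes, were sorted for fluorescence from Pdgfra-H2BGFP mice, in which a nuclear green protein follows the Pdgfra gene, and from Tagl-CREERT2;Ai14 mice, in which a tamoxifen-dependent recombinase turns on a red protein. Before the sort, vessel fragments had been pulled from digested brain with beads against the endothelial surface protein CD31. Since a well cannot be matched to its mouse line, animal or plate from the labels, the 1152 wells were treated as 1 sample, no test between groups was possible and no p-value is given.

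Oligodendrocytes wrap axons in myelin, and in the adult brain they still arise from dividing precursors. Olig2 and Olig1 are basic helix-loop-helix proteins that set up and keep the lineage, and Sox10, with its close relative Sox8, drives the myelin programme. Sox6 is known for holding precursors back from early differentiation, Nkx2-2 for timing the exit from the precursor state, and Tcf7l2, an effector of Wnt signalling, for a short period of expression in newly formed oligodendrocytes. Myrf, a membrane-bound factor that cuts itself free, is needed to make and keep myelin, and St18 is a zinc finger protein of the Myt1 family.

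Wells with at least 50000 reads were kept, which left 857 of 1152. Each was placed by 6 markers per cell type, none of them among the 9 genes, with a marker counted as present at 100 counts per 1e6 reads of the well (CPM). A stage needed at least 4 of its 6 markers and more of them than of any other stage. This gave 167 precursor wells (markers Pdgfra, Cspg4, Lhfpl3, Matn4, Ptprz1 and C1ql1), 84 wells of committed precursors (Enpp6, Bmp4, Gpr17, Neu4, Fyn and Itpr2) and 220 wells of mature oligodendrocytes (Mog, Mag, Mobp, Opalin, Ermn and Aspa). The non-lineage class held 148 wells, among them 67 of fibroblast type, 39 endothelial, 14 of microglia or macrophage type, 9 of choroid plexus type and 8 of astrocyte type. Another 136 wells met a lineage stage but also carried at least 3 markers of another cell type and were left out, and 102 wells met no class.

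The gene of myelin basic protein, Mbp, which the gates did not use, had 2052 CPM in precursor, 3319 in committed and 4876 in mature wells, against 706.5 CPM in non-lineage wells. Single wells overlapped, with up to 9046 CPM in precursor and 27072 CPM in non-lineage wells. Wells that met no class had 7354 CPM, and mature-stage wells left out for markers of another type 7389 CPM. Median depth was 267250 reads in precursor, 443377 in committed, 347761 in mature and 312793 in non-lineage wells. Of the wells in a stage, 15 precursor, 22 committed and 7 mature wells had exactly 4 of their markers, while 1 precursor, 0 committed and 14 mature candidates fell out with 3. Ties with another stage left out 15 precursor, 7 committed and 14 mature candidates, where a tied well counts under each of its stages. A lead of only 1 marker placed 27 of the precursor, 27 of the committed and 10 of the mature wells. Stages were not sharply separated: committed wells had a median summed level of 860 CPM of the 6 precursor markers, and precursor wells had 2425 CPM of the 6 committed markers. The 6 astrocyte markers summed to a median of 950 CPM in precursor, 233 in committed and 251 in mature wells, against 87.1 CPM in non-lineage wells. By summed reads, Aldoc and Slc1a2 had 517 and 490 CPM in precursor wells, against 164 and 113 CPM in non-lineage wells. Aqp4, Gfap, Agt and Fgfr3 were lower in precursor wells, at 9.55, 6.96, 0.976 and 68.5 CPM, against 15.0, 23.4, 24.2 and 87.9 CPM in non-lineage wells. The part of these markers in the results was not tested.

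Column headings named 3 sets of 384 wells, 1025s_182s, 600s_182s and 613s, and the classes were spread unevenly over them. Precursor wells numbered 12, 134 and 21 in that order, committed wells 3, 73 and 8, mature wells 69, 55 and 96, and non-lineage wells 93, 15 and 40. Ratios were therefore also taken within each set where both classes had at least 5 wells, which no comparison with committed wells had in 1025s_182s. Mature wells of the 3 sets had a median of 3860, 8008 and 6364 genes. What the sets stand for is not given in the labels, and intervals below cover counting error of reads only, not the spread between animals.

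Promoter sequences from RefSeq (GRCm38.p6, 250 bases before to 50 after a start site, on the strand of the gene) were on hand for Olig2, Sox8, Sox6, Nkx2-2 and Tcf7l2. Those of Olig2, Nkx2-2 and Tcf7l2 are shown as examples. Below, Olig2 is highest in precursor wells. Nkx2-2 and Tcf7l2 are both highest in committed wells, where these 2 varied in opposite directions between wells. Capitals mark matches, on either strand, to the E-box CANNTG that basic helix-loop-helix proteins recognise, to ACAANG of SOX proteins and to CTTTGA of TCF/LEF proteins. Of 2 windows on hand for Tcf7l2, the one at its first start site is shown. The windows are chr16:91225300-91225599 on the plus strand for Olig2, chr2:147186353-147186652 on the minus strand for Nkx2-2 and chr19:55741560-55741859 on the plus strand for Tcf7l2.
Olig2: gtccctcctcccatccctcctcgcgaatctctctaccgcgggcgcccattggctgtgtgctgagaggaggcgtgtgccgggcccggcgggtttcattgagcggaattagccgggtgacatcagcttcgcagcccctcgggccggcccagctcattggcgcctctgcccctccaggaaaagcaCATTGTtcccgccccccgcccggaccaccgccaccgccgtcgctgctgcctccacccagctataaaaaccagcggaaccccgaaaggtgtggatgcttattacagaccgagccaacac
Nkx2-2: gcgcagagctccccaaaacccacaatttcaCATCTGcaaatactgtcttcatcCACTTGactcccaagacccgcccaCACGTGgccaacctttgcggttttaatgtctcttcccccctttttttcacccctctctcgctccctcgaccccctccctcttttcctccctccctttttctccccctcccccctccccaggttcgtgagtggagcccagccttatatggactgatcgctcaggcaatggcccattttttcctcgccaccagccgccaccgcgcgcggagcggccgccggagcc
Tcf7l2: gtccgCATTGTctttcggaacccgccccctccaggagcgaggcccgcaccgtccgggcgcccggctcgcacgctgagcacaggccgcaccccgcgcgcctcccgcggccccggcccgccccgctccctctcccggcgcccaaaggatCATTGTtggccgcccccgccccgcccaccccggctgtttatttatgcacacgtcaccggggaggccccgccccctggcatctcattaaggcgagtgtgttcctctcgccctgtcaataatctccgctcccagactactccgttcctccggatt
The Olig2 window held 1 SOX match and the Tcf7l2 window shown 2, with no E-box in either, while the Nkx2-2 window held 3 E-boxes and no SOX match. Its second E-box overlaps the only match to TNAAGTG, a motif of NKX2 proteins. The other Tcf7l2 window, at chr19:55895071-55895370, held 1 SOX match and 1 NKX2 match and no E-box. None of the 3 windows shown held CTTTGA. Of 32851 promoter windows of the same length, 72.3% held an E-box, 41.25% the SOX motif, 16.0% the TCF/LEF motif and 11.5% the NKX2 motif. These shares count windows with at least 1 match, so an E-box or SOX match is common. A match describes letters, not a bound site.

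Olig1 and Olig2 were the most abundant of the 9 factors per length in precursor wells. Divided by the joined length of their annotated exons, Olig1 had 1705 and Olig2 495 CPM per kilobase there, followed by Sox10 with 374 and Sox8 with 192. Nkx2-2 had 24.6, Sox6 15.3 and Tcf7l2 6.85 CPM per kilobase, and Myrf and St18 came last with 2.68 and 1.08. In mature wells the same 4 led, with Sox10 before Olig2: Olig1 had 1029, Sox10 273, Olig2 208 and Sox8 121 CPM per kilobase. Myrf, at 49.8, and St18, at 23.4, stood above Nkx2-2 at 18.6, and Sox6 was last at 0.298. These levels rest on gene lengths of GENCODE vM21, which may differ from the annotation used for counting.

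**Figure D1:**
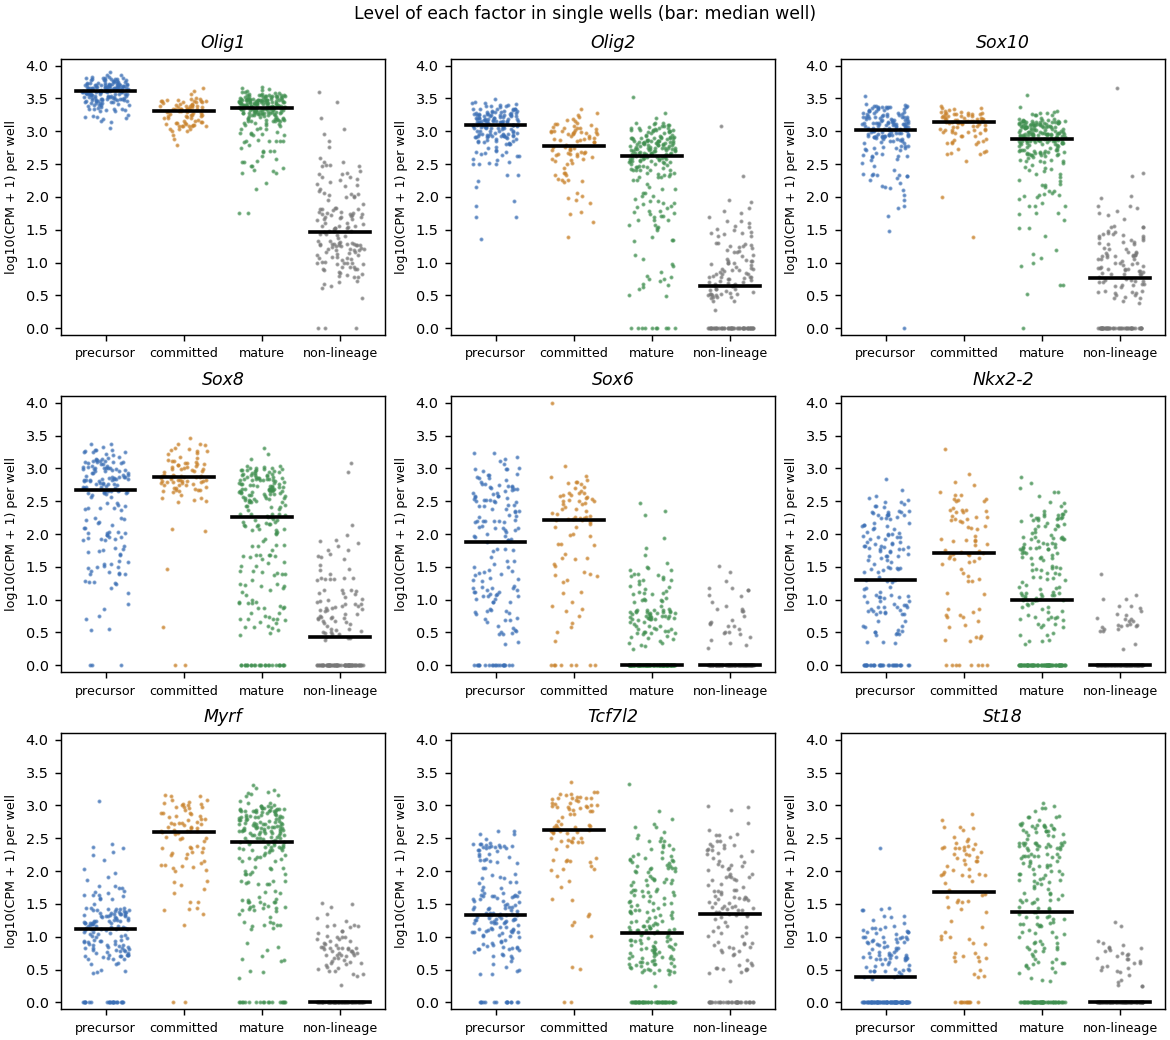
Each point is 1 well, placed at log10(CPM + 1) of the named factor, for 167 precursor, 84 committed, 220 mature and 148 non-lineage wells, with a bar at the median well. Olig1 had at least 617 CPM in every precursor and committed well, Sox6 dropped to a median of 0 CPM in mature wells, and the median of Tcf7l2 was 429 CPM in committed wells and at most 21.1 CPM in the other 3 classes.

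Olig1 (GRCm38 chr16:91269772-91271933, plus strand) had 3686 CPM over precursor wells (95% interval 3670 to 3703), 1858 over committed wells (1845 to 1871) and 2225 over mature wells (2215 to 2235), against 72.1 CPM over non-lineage wells (69.8 to 74.4). Single precursor wells ran from 1124 to 7967 CPM with a median of 4076, committed wells from 617 to 4533 with a median of 2055, and mature wells from 55.3 to 4769 with a median of 2263, while non-lineage wells ran from 0 to 4012 with a median of 28.7. Precursor wells were thus the highest, and 64.3% of committed and 48.6% of mature wells lay below the 10th percentile of precursor wells. The log2 ratio of committed to precursor wells, -0.99, stopped just short of the 2-fold size used for a call, and was -0.997 and -0.946 within the sets 600s_182s and 613s. Leaving out 600s_182s or 613s moved it to -1.13 or -1.01, past 2-fold. Between mature and committed wells the log2 ratio was 0.26.

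Olig2 lies 41094 bases from Olig1 on the same chromosome (chr16:91225457-91228677, plus strand) and had 1252 CPM in precursor (1242 to 1261), 711 in committed (703 to 719) and 526 in mature wells (521 to 531), against 9.83 CPM in non-lineage wells (9.00 to 10.7). Levels in single precursor wells ran from 21.6 to 3063 CPM with a median of 1239, committed wells from 23.7 to 2206 with a median of 598, mature wells from 0 to 3344 with a median of 413, and non-lineage wells from 0 to 1201 with a median of 3.46. Among mature wells, 50.9% lay below the 10th percentile of precursor wells, and 10 of 220 had no Olig2 read. Olig2 was called lower in mature than in precursor wells, at a log2 ratio of -1.25, and was -1.15, -0.99 and -1.32 within 1025s_182s, 600s_182s and 613s. With median-of-ratios scaling, which moved the members' log2 ratios of this comparison by a median of 0.42, Olig2 came to -0.82 and was not called.

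Within the lineage stages, wells with Olig1 but no Olig2 read were found mostly in the mature stage. After thinning every well to 50000 reads, a read of both genes was left in 99.4% of precursor, 98.8% of committed and 89.5% of mature wells, and Olig1 alone in 0.599%, 1.19% and 10.5% of them. By set, Olig2 was left in 81.2% of mature wells of 1025s_182s, 100.0% of those of 600s_182s and 89.6% of those of 613s. For precursor wells these shares were 100.0%, 99.3% and 100.0%. Within 600s_182s the stages thus did not differ in this, and the part of the sets was not tested. In the 471 lineage wells together Pearson's r of their log2(CPM + 1) was 0.40, and within a stage it was 0.24 in precursor, 0.27 in committed and 0.24 in mature wells, a description over wells that share libraries and depth.

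Sox10 (chr15:79154908-79165240, minus strand) was the most even of the 9 over the stages. It had 1140 CPM in precursor (1131 to 1150), 1319 in committed (1307 to 1330) and 833 in mature wells (827 to 839), against 18.0 CPM in non-lineage wells (16.9 to 19.2). Its range was 0 to 3428 CPM in precursor wells with a median of 1062, 23.7 to 2410 in committed wells with a median of 1368, 0 to 3513 in mature wells with a median of 761, and 0 to 4562 in non-lineage wells with a median of 4.85. The 3 stages overlapped widely, and the log2 ratios were 0.21 for committed over precursor wells, -0.66 for mature over committed wells and -0.45 for mature over precursor wells, none of them past 2-fold. One fibroblast-type well at 4562 CPM held 25.7% of the non-lineage reads, and without it the non-lineage level was 13.4 CPM.

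Sox8 (chr17:25565892-25570686, minus strand) was highest in committed wells. It had 599 CPM in precursor (592 to 606), 908 in committed (899 to 917) and 377 in mature wells (373 to 381), against 15.8 CPM in non-lineage wells (14.8 to 17.0). Well by well, the precursor stage ran from 0 to 2359 CPM with a median of 464, committed wells from 0 to 2923 with a median of 731, mature wells from 0 to 2059 with a median of 181, and non-lineage wells from 0 to 1191 with a median of 1.68. Of mature wells, 60.5% lay below the 10th percentile of committed wells. Sox8 was called lower in mature than in committed wells, with a log2 ratio of -1.27 over all wells, -0.80 within 600s_182s, which is short of 2-fold, and -1.64 within 613s. No Sox8 read was found in 29.0% of the mature wells of 1025s_182s, 0% of those of 600s_182s and 5.21% of those of 613s, and in 25.0%, 0% and 0% of the precursor wells of these sets.

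A second gene is annotated on the opposite strand at Sox8, with exons that overlap it. This antisense RNA, 2810468N07Rik, had 302 CPM in precursor, 494.5 in committed and 762 in mature wells, against 14.8 CPM in non-lineage wells, so it was highest in the stage where Sox8 was lowest of the 3. For each Sox8 read it had 0.505 reads in precursor, 0.545 in committed and 2.02 in mature wells. The strand setting of the counting is not given in the sources used here, and in the overlap the reads of the pair cannot be told apart.

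Sox6 (chr7:115470872-116038796, minus strand) was present up to the committed stage and nearly absent after it. It had 227 CPM in precursor (223 to 231) and 242.5 in committed wells (238 to 247) but 4.42 CPM in mature wells (3.99 to 4.89), against 1.26 CPM in non-lineage wells (0.972 to 1.60). Precursor wells ran from 0 to 1696 CPM with a median of 74.8, committed wells from 0 to 9941 with a median of 162, mature wells from 0 to 297 with a median of 0, and non-lineage wells from 0 to 32.0 with a median of 0. Expression was patchy where it was found: 44.9% of precursor and 57.1% of committed wells reached 100 CPM, against 1.36% of mature wells. One committed well reached 9941 CPM, and without it the committed level was 225.5 CPM. Sox6 was called lower in mature than in committed wells, with a log2 ratio of -5.49 over all wells, -4.50 within 600s_182s and -5.93 within 613s. Against precursor wells, mature wells gave -5.39 over all wells and -7.19, -4.38 and -5.71 within 1025s_182s, 600s_182s and 613s.

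Nkx2-2 (chr2:147177546-147194243, minus strand), whose promoter window above carried 3 E-boxes, was found at low levels in every stage and was highest in committed wells. It had 70.8 CPM in precursor (68.5 to 73.1), 124 in committed (121 to 127) and 53.3 in mature wells (51.8 to 54.9), against 0.838 CPM in non-lineage wells (0.609 to 1.13). Its lowest and highest precursor wells had 0 and 698 CPM with a median of 19.3, committed wells 0 and 1954 with a median of 51.2, mature wells 0 and 743 with a median of 8.92, and non-lineage wells 0 and 23.9 with a median of 0. At an even 50000 reads, 55.7% of precursor, 73.8% of committed and 49.1% of mature wells had a read, against 3.38% of non-lineage wells. It was called lower in mature than in committed wells, at a log2 ratio of -1.20 over all wells, -1.64 within 600s_182s and -0.88 within 613s, and fell short of 2-fold at -0.98 without 600s_182s and at -0.98 with median-of-ratios scaling. Nkx2-2os, annotated on the opposite strand with overlapping exons, had 18.4, 26.1 and 20.1 CPM in precursor, committed and mature wells, against 0.267 CPM in non-lineage wells.

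Myrf (chr19:10208272-10240748, minus strand) separated precursor wells from both later stages. It had 22.9 CPM in precursor wells (21.7 to 24.3), 490.5 in committed (484 to 497) and 427 in mature wells (422 to 431), against 2.95 CPM in non-lineage wells (2.51 to 3.45). Precursor wells ran from 0 to 1168 CPM with a median of 12.0, committed wells from 0 to 1442 with a median of 399, mature wells from 0 to 2068 with a median of 279, and non-lineage wells from 0 to 32.0 with a median of 0. Of committed wells, 88.1% lay above the 90th percentile of precursor wells, as did 72.7% of mature wells. The log2 ratio of committed to precursor wells was 4.36, with 4.18 within 600s_182s and 4.60 within 613s. For mature over precursor wells it was 4.16, with 7.27, 4.31 and 4.65 within 1025s_182s, 600s_182s and 613s.

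St18 (chr1:6487231-6860940, plus strand) followed the same division at a lower level. It had 6.98 CPM in precursor (6.29 to 7.73), 133 in committed (130 to 137) and 151 in mature wells (149 to 154), against 1.10 CPM in non-lineage wells (0.839 to 1.43). Precursor wells ran from 0 to 221 CPM with a median of 1.43, committed wells from 0 to 749 with a median of 47.1, mature wells from 0 to 1083 with a median of 23.0, and non-lineage wells from 0 to 15.7 with a median of 0. A single precursor well held 53.5% of the precursor reads of St18, and without it the precursor level was 3.30 CPM. Wells of the later stages varied: 38.1% of committed and 34.5% of mature wells reached 100 CPM, while 11 of 84 committed and 57 of 220 mature wells had no St18 read. Among mature wells these shares differed by set. No St18 read was found in 42.0% of those of 1025s_182s, 9.09% of those of 600s_182s and 24.0% of those of 613s, and 29.0%, 56.4% and 26.0% reached 100 CPM. The log2 ratios were 4.07 for committed over precursor wells and 4.25 for mature over precursor wells, and within sets they ran from 3.79 to 5.72 and from 4.20 to 6.33.

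Tcf7l2 (chr19:55741820-55933654, plus strand), whose window above held 2 SOX matches, was the one factor high in committed wells and low on both sides. It had 60.1 CPM in precursor (58.0 to 62.2), 642 in committed (634 to 649) and 59.6 in mature wells (57.9 to 61.2), against 77.4 CPM in non-lineage wells (75.0 to 79.8). Precursor wells ran from 0 to 402 CPM with a median of 20.3, committed wells from 0 to 2300 with a median of 429, mature wells from 0 to 2083 with a median of 10.4, and non-lineage wells from 0 to 963 with a median of 21.1. Committed wells stood out from all 3 other classes: 83.3% reached 100 CPM, against 21.0% of precursor, 17.7% of mature and 22.3% of non-lineage wells. The log2 ratio of committed to precursor wells was 3.40, with 3.20 within 600s_182s and 5.42 within 613s. Mature over committed wells gave -3.41, with -3.55 within 600s_182s and -3.41 within 613s.

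Precursor and mature wells did not differ in one direction in Tcf7l2. Their log2 ratio, mature over precursor, was -0.01 over all wells but -0.92 within 1025s_182s, -0.35 within 600s_182s and 2.00 within 613s, where 21 precursor wells gave 17.0 CPM. The difference between sets was not tested.

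Set against non-lineage wells, the factors were higher in the lineage with few exceptions. A gene was called higher or lower at a ratio of at least 2 with at least 10 CPM in the higher class, a rule of size that carries no test. In precursor wells 7 of 9 factors were called higher and 0 lower than in non-lineage wells, where 23.9% of 12855 genes at that level were called higher and 22.3% lower. Tcf7l2, at a log2 ratio of -0.36, was not called, nor was St18, at 1.92, which stayed under 10 CPM in both classes. Committed wells had all 9 called higher and 0 lower, beside 20.6% of genes higher and 28.6% lower. In mature wells 7 of 9 were called higher and 0 lower, beside 16.7% of genes higher and 32.7% lower. The exceptions there were Tcf7l2, at a log2 ratio of -0.37, and Sox6, at 1.27, with under 10 CPM in either class.

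These ratios were large but depended on the set. Their median over the 9 factors was 5.29 for precursor, 6.04 for committed and 4.93 for mature wells, on the log2 scale, beside 0.09, -0.07 and -0.30 over all genes at 10 CPM or more. Olig2 was the furthest apart in precursor wells at 6.86, Myrf in committed and mature wells at 6.96 and 6.76. Of the ratios taken within sets, 600s_182s, which had 15 non-lineage wells, gave the smallest for 6 of 9 factors in precursor, 9 of 9 in committed and 7 of 9 in mature wells. Olig1 in precursor wells gave 3.98 there, against 6.14 in 1025s_182s and 5.41 in 613s. The smallest ratios of Myrf and St18 in precursor wells were in 1025s_182s. Myrf in precursor wells, called at 2.60 over all wells, gave 0.01 within 1025s_182s, 1.58 within 600s_182s and 1.61 within 613s.

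Lineage reads were also found in non-lineage wells. Thinned to 50000 reads, 100.0% of precursor wells had a read of Olig1 (97.8 to 100.0), against 74.3% of non-lineage wells (66.5 to 81.1). For Sox10 it was 99.4% of precursor against 33.1% of non-lineage wells, for Olig2 99.4% against 25.0%, and for Sox8 91.6% against 25.7%. Sox6 was left in 68.9% of precursor and 6.08% of non-lineage wells, and St18 in 16.2% and 0.676%. A read of Olig1 therefore did not set a lineage well apart, and levels overlapped too: 34 of 148 non-lineage wells had at least 100 CPM of Olig1, among them all 15 of 600s_182s.

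**Figure D2:**
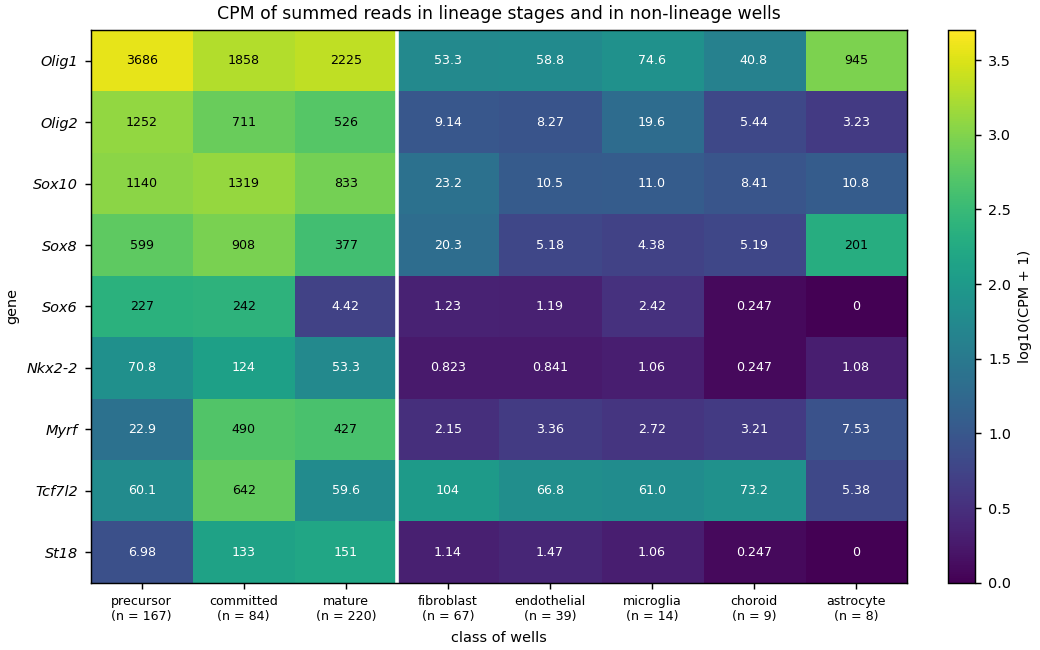
Cells give the CPM of summed reads of each factor (rows) in the 3 lineage stages and in 5 types of non-lineage wells (columns, with the number of wells), coloured by log10(CPM + 1). Tcf7l2 had 60.1 and 59.6 CPM in precursor and mature wells, against 104 CPM in fibroblast-type wells, and Olig1 had 945 CPM in 8 astrocyte-type wells.

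Among the non-lineage types, Tcf7l2 and Olig1 were each spread over several and most other factors were not. Tcf7l2 had 104 CPM in 67 fibroblast-type wells (99.4 to 108) and 66.8 in 39 endothelial wells (62.7 to 71.2). It had 61.0 CPM in 14 wells of microglia or macrophage type and 73.2 in 9 wells of choroid plexus type, where 1 well held 81.8% of the reads. A median fibroblast-type well had 36.8 CPM and a median endothelial well 3.37 CPM, so in the endothelial wells a few carried most of it. Astrocyte-type wells had 5.38 CPM of Tcf7l2. Olig1 had 53.3 CPM in fibroblast-type wells, 58.8 in endothelial wells and 40.8 in wells of choroid plexus type. In wells of microglia or macrophage type Olig1 had 74.6 CPM, with 47.2% of the reads in 1 well.

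Olig1 and Olig2 parted in the 8 astrocyte-type wells. Olig1 reached 945 CPM there (884 to 1010), or 591.5 CPM without the highest well at 4012, and 6 of 8 wells had at least 100 CPM, while Olig2 had 3.23 CPM with reads in 1 well. These wells also had 15466 CPM of Mbp, and its part in the Olig1 level was not tested. Of the 8 wells, 7 came from 1025s_182s. Their median was 102621 reads and 2636 genes, against 312793 reads and 5410 genes over all non-lineage wells. The part of set and depth in this contrast was not tested. In fibroblast-type wells Olig1 had 53.3 and Olig2 9.14 CPM, and in endothelial wells 58.8 and 8.27 CPM.

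Single wells carried other non-lineage levels. One well of microglia or macrophage type had 1201 CPM of Olig2, 76.2% of the Olig2 reads of its type. One fibroblast-type well held 47.9% of the Sox10 reads of its type, and without it the type had 12.1 CPM. In astrocyte-type wells 99.5% of Sox8 reads came from 1 well at 1191 CPM. Sox6 and St18 had no read in the 8 astrocyte-type wells, which together allow up to 3.97 CPM at the 95% level.

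From precursor to committed wells the factors divided into 3 that were called higher and 6 that were not called. Myrf, St18 and Tcf7l2 were higher, at log2 ratios of 4.36, 4.07 and 3.40, and 0 of 9 were called lower, where 10.8% of 11474 genes were called higher and 23.6% lower. The SOX factors and Nkx2-2 stayed short of 2-fold, with 0.21 for Sox10, 0.60 for Sox8, 0.10 for Sox6 and 0.80 for Nkx2-2, and the Olig pair had -0.99 and -0.82. The median over the 9 was 0.60, beside -0.15 over all genes. By the median well in place of summed reads, Sox6 and Nkx2-2 were also called higher, at 1.11 and 1.37, and Olig2 lower, at -1.05.

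From committed to mature wells the calls went down. Sox6, Tcf7l2, Sox8 and Nkx2-2 were called lower in mature wells, at log2 ratios of -5.49, -3.41, -1.27 and -1.20, and 0 of 9 were called higher, where 13.1% of 10510 genes were called higher and 21.0% lower. Myrf and St18, at -0.20 and 0.18, were not called, nor was Olig1 at 0.26. Olig2 and Sox10 had -0.43 and -0.66. The median over the 9 was -0.66, beside -0.22 over all genes.

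Across the whole span, mature over precursor wells, Myrf and St18 were called higher and Olig2 and Sox6 lower. That is 2 of 9 higher and 2 of 9 lower, where 11.8% of 11490 genes were called higher and 31.2% lower. The other 5 had log2 ratios of -0.73 for Olig1, -0.67 for Sox8, -0.45 for Sox10, -0.40 for Nkx2-2 and -0.01 for Tcf7l2. The median over the 9 was -0.45, beside -0.38 over all genes, with members far to either side of both.

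**Figure D3:**
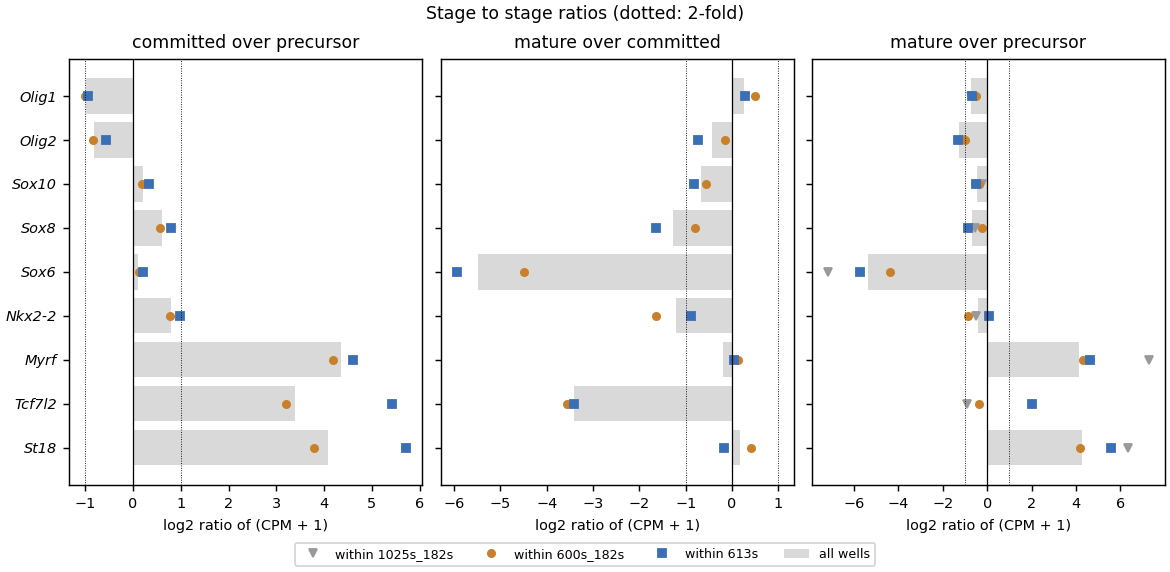
Bars give the log2 ratio of (CPM + 1) between stages for each factor over all wells, and symbols the ratio within a set of wells where both stages had at least 5 wells, with dotted lines at 2-fold. Myrf and St18 lie to the right in both comparisons with precursor wells, Sox6 far to the left in both comparisons of mature wells, and Tcf7l2 within 613s lies apart from the other sets for mature over precursor wells.

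The stages were divided further, by how many markers of the next or the previous stage a well carried. These groups order wells by their markers and do not measure time. This division was chosen after the data had been seen, and it uses gate markers but none of the 9. Precursor wells were split at 2 and at 3 committed markers present, committed wells at 3 mature markers, and mature wells at 2 committed markers, which gave groups of 9, 65, 93, 34, 50, 36 and 184 wells. The first group was small. Myrf had 2.30, 11.9 and 34.9 CPM over the 3 precursor groups, 413 and 545 over the committed groups, and 468 and 419 over the mature groups. St18 ran 1.31, 2.65, 11.4, 91.5, 163, 119 and 158 CPM over the same groups. Myrf was thus higher in precursor wells that carried more committed markers, before the step at the committed stage. For St18 a single well held 65.0% of the reads of the third precursor group, which had 4.12 CPM without it. The 2 mature groups differed in their sets, with 24 of 36 and 31 of 184 wells from 600s_182s. Within 600s_182s alone Myrf had 417 and 559 CPM over the committed groups and 500 and 573 over the mature groups. St18 had 92.9 and 162 CPM, then 94.3 and 227 CPM. In that set both were thus higher in the last mature group than in either committed group.

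Tcf7l2 differed less among the precursor groups. It had 50.6, 54.9 and 65.7 CPM over the precursor groups, 461 and 768 over the committed groups, and then 89.0 and 54.0 over the mature groups. Without its top well the first precursor group had 27.4 CPM. Its highest level was in committed wells with at least 3 mature markers, and mature wells with 2 or more committed markers were low. Within 600s_182s alone the committed groups had 446 and 730 CPM and the mature groups 93.3 and 25.0 CPM.

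Sox8 and Nkx2-2 were highest one group earlier, in committed wells with under 3 mature markers. Sox8 had 1123 CPM there (1107 to 1139) and 757 in the later committed group, beside 614 in the last precursor group and 394 in the first mature group. Nkx2-2 had 148 CPM (142 to 154) and 107 in the 2 committed groups, beside 69.3 and 31.6 CPM on either side. Sox6 had 107, 184 and 278 CPM over the precursor groups and 284 and 214 over the committed groups, then 11.4 and 3.10 CPM over the mature groups. Without the top well of its group, the first precursor value was 63.0 CPM and the first mature value 5.78 CPM. Its step thus fell between committed wells with at least 3 mature markers and mature wells with 2 or more committed markers. Within 600s_182s that step was between 227 and 15.7 CPM.

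**Figure D4:**
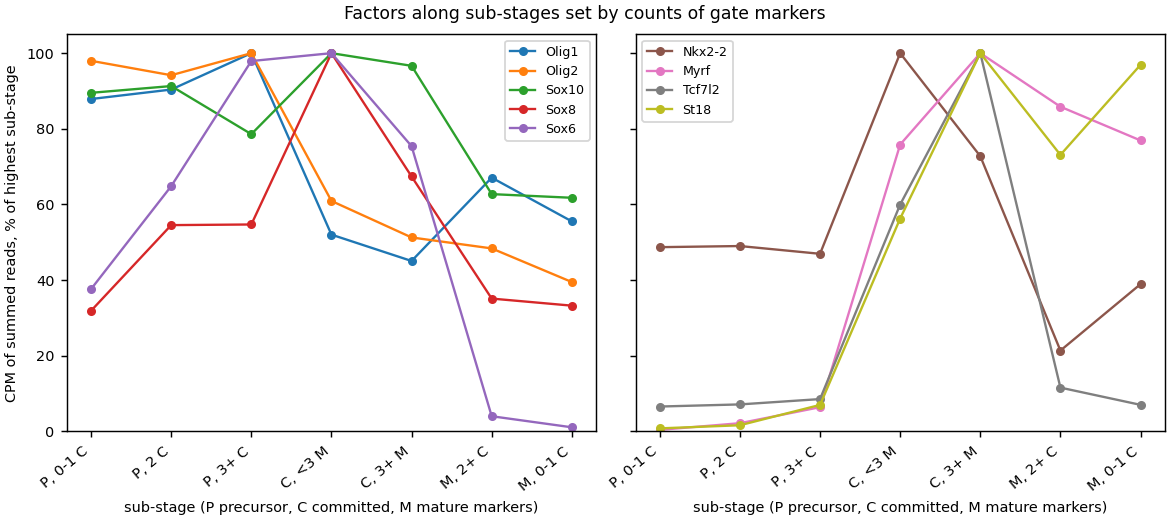
Lines give the CPM of summed reads of each factor over 7 sub-stages, in percent of its highest sub-stage, with sub-stages set by the count of precursor (P), committed (C) and mature (M) gate markers. Over the wells of all sets, Olig1 and Olig2 are highest in precursor groups, and Sox8 and Nkx2-2 in the first committed group. Tcf7l2 and Myrf are highest in the second, and St18 in the second committed group and the last mature group. Within 600s_182s alone, not drawn here, Myrf and St18 were higher in the last mature group than in either committed group.

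Single wells held several factors at once. Counting factors at 100 CPM or more, precursor wells had a median of 5 of the 9 (2 to 7), committed wells 7 (2 to 9) and mature wells 5 (1 to 8), against 0 (0 to 2) in non-lineage wells. All 9 together were found in 6 of 84 committed wells and in no precursor or mature well. In the 1025s_182s and 613s sets mature wells had a median of 4 factors and in 600s_182s 6, the set where mature wells had the most genes. Non-lineage wells had a median of 2 factors in 600s_182s and 0 in 1025s_182s and 613s. In 600s_182s the medians of precursor and committed wells were 5 and 7.

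Within committed wells the factors varied in 2 directions. Myrf and Tcf7l2 went together, with r = 0.60 over 84 wells and 0.53 over the 73 wells of 600s_182s, and Sox10 with Myrf gave 0.49 and 0.24. Tcf7l2 ran against Nkx2-2, at -0.45 and -0.42, and against Olig1, at -0.44 and -0.40. At 100 CPM, 61 committed wells had both Tcf7l2 and Myrf, 9 only Tcf7l2, 8 only Myrf and 6 neither. For Tcf7l2 and Nkx2-2, 22 wells had both, 48 only Tcf7l2, 9 only Nkx2-2 and 5 neither. Tcf7l2 and Myrf had r = 0.23 in precursor and 0.04 in mature wells, and Tcf7l2 and Nkx2-2 0.08 and 0.15. All these values describe wells that share libraries and differ in depth, and no p is given.

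**Figure D5:**
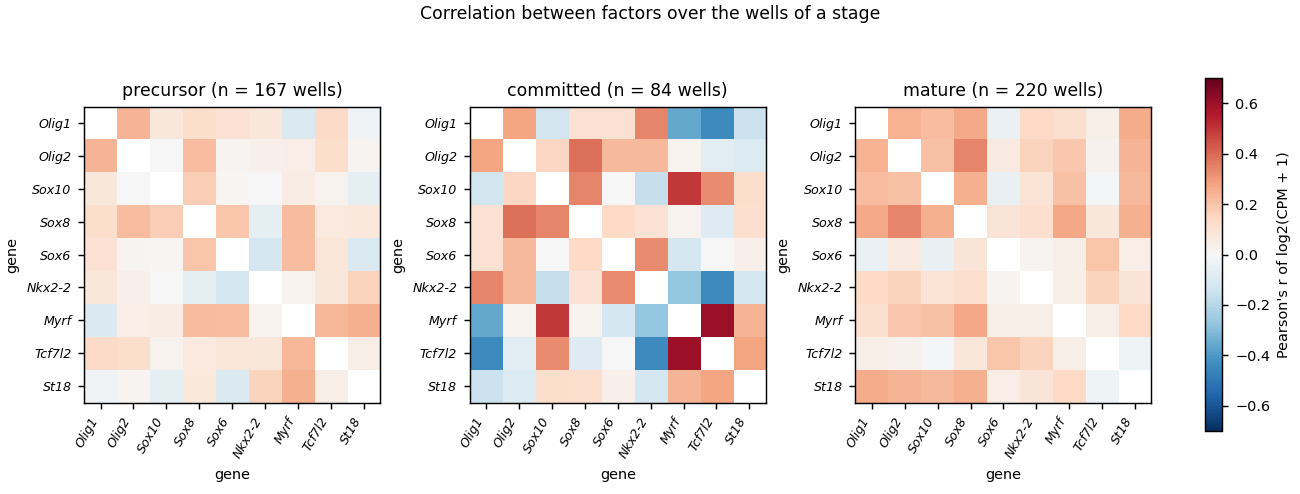
Squares give Pearson's r of log2(CPM + 1) for each pair of factors over the wells of 1 stage, from blue (negative) to red (positive). The committed panel holds the highest r, Myrf with Tcf7l2 at 0.60, and the lowest, Nkx2-2 with Tcf7l2 at -0.45, while the precursor and mature panels are pale.

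Over the 471 lineage wells, each factor was also compared with 11801 genes by the same correlation, as a description of wells that share libraries. Most alike to Sox6 were Neu4 (r = 0.67), Tnr (0.67) and Gria2 (0.65), the last an AMPA receptor subunit. Myrf varied most like Lgi3 (0.64), Cldn11 (0.60), a tight junction gene of myelin, and Mag (0.60), and St18 like Cldn11 (0.50), Sema4d (0.50) and Gamt (0.50). Tcf7l2 varied most like Enpp6 (0.58), Rassf10 (0.55) and Rnd2 (0.54), each of which peaked in committed wells too, Rassf10 at 232 CPM there beside 2.48 CPM in precursor and 0.875 CPM in mature wells. Neu4, Mag, Enpp6, Gpr17 and Lhfpl3 are gate markers, so their likeness follows in part from the gates.

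The remaining factors had looser partners. Olig1 was most like Mmp15, RP24-324L19.4 and Gm26716 (0.48, 0.48 and 0.47), Olig2 like Gpr17, Lhfpl3 and Sdc3 (0.47, 0.46 and 0.46) and Sox8 like Gpr17, Kank1 and Hip1r (0.48, 0.45 and 0.45). Sox10, the most even factor, had none above 0.37, the value for the splicing factor gene Srsf2. Nkx2-2 was most like its antisense partner Nkx2-2os (0.82), whose reads cannot be told apart from its own where exons overlap, and then like 5730559C18Rik (0.31).

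Of 52 other regulators known from this lineage, 51 were in the table. In precursor over non-lineage wells 19 of the 45 with at least 10 CPM in either class were called higher and 6 lower, in committed wells 15 and 11 of 40, and in mature wells 10 and 14 of 35. Between stages, 11 of 43 were called higher and 19 lower in committed over precursor wells, 7 and 13 of 35 in mature over committed wells, and 5 and 21 of 42 in mature over precursor wells. Regulators with a lower level in later stages thus outnumbered those with a higher one, as in the table as a whole.

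Relatives of the 9 took other courses. Sox5, the partner of Sox6 in the SoxD group, had 181 CPM in precursor, 56.8 in committed and 2.25 in mature wells, against 21.4 CPM in non-lineage wells, so that it was lower in committed than in precursor wells, at a log2 ratio of -1.65, where Sox6 had 0.10. Sox9, the third SoxE gene, had 13.4, 1.08 and 7.70 CPM over the stages against 92.5 CPM in non-lineage wells. Tcf7l1, a relative of Tcf7l2, likewise peaked in committed wells, at 46.7 CPM beside 4.28 and 3.62, with 44.1 CPM in non-lineage wells. Lef1 and Tcf7 of the same family had 0.482 and 2.17 CPM in committed wells, against 131 and 46.0 CPM in non-lineage wells. Myt1, of the same family as St18, ran opposite to it, with 63.0, 15.4 and 3.64 CPM over the stages against 0.552 CPM in non-lineage wells, and the homeodomain gene Nkx6-2 was higher at each stage, at 21.0, 96.4 and 387 CPM, against 12.0 CPM. Olig3 had no read in precursor, committed and non-lineage wells and 0.0233 CPM in mature wells.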

How the data were processed

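The values are counts of reads per gene in 1152 wells, whole numbers that the authors deposited without normalization. Per the submitters' processing notes, the tools were TopHat2 2.1.1, SAMtools 0.1.18 and, from Subread 1.4.6-p5, featureCounts, and the builds GRCm38 and mm10. How strand and multiply matching reads were handled, and which annotation was counted, is not given in the sources used here, so reads of overlapping or antisense genes may be shared. SMART-seq2 carries no molecular identifiers, so PCR copies are counted and intervals cover counting error only.

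Wells with at least 50000 reads were kept (857 wells, 286470775 reads), and 295 were left out. Each was gated by 6 markers per cell type at 100 CPM: a lineage stage needed at least 4 of 6 and a lead of at least 1 over each other stage, and under 3 markers of 7 other types. Class levels are CPM of summed reads with exact Poisson 95% intervals. Shares of wells with a read were taken after thinning each well at random, once, to 50000 reads (seed 1), with exact Clopper-Pearson 95% intervals. Ratios are log2 of (CPM + 1), so they understate differences of low genes. A gene was called at a ratio of at least 2 with at least 10 CPM in the higher class, over all genes of the table. Wells are not replicates, since the labels name no animal, line or plate, and no test was run. The calling step was tested on simulated counts. No doublet caller was run on sorted wells.

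The 9 genes, markers and lists were chosen with earlier results of these data known. Besides the 9, the genes named are the 3 with the highest Pearson correlation with each over lineage wells, relatives of the 9 from a list of 52 regulators, overlapping genes, and Mbp, which was picked after its values were seen. Coordinates come from GENCODE vM21 (GRCm38), in which 42052 of 46517 symbols matched. Python 3.11.15, numpy 2.4.6, pandas 2.3.3, scipy 1.17.1 and matplotlib 3.10.9 were used. Alternatives changed the gates, the minimum depth, the way wells were combined, the scaling, the pseudocount, the level and fold of a call and the sets of wells included.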

Additional observations from a re-analysis of the deposited data

Results flagged for a closer look

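Tcf7l2 ran in opposite directions between the sets of wells. Its log2 ratio of precursor to non-lineage wells was -2.01 within 613s and -0.98 within 600s_182s but 0.41 within 1025s_182s. For mature over precursor wells it was 2.00 within 613s but -0.35 within 600s_182s and -0.92 within 1025s_182s. The precursor levels behind these ratios were 17.0 CPM in 21 wells of 613s, 65.4 CPM in 134 wells of 600s_182s and 99.5 CPM in 12 wells of 1025s_182s. The difference between the sets was not tested.

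All 9 factors had reads in the 295 wells with under 50000 reads, which entered no comparison. Their summed reads there gave 933 CPM for Olig1, 156 for Olig2, 227 for Sox10, 130 for Sox8, 30.0 for Sox6, 14.0 for Nkx2-2, 64.3 for Myrf, 98.0 for Tcf7l2 and 37.3 for St18. Each of these values lies above the counting interval of the same factor in the non-lineage wells that were kept.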

How the results depend on the processing

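Counts of factors called were recomputed under 16 other settings and 4 more chosen after the data were seen. Of 220 such counts, 208 stayed within 1.5 times the reported count and 12 did not. In committed over precursor wells, where 0 factors were called lower, 1 was (Olig1) with marker thresholds of 50 or 200 CPM, with a lead of 2 markers, with the mean of wells, and without the set 600s_182s or 613s. With the median of wells 5 were called higher there and 1 lower (Olig2). In mature over precursor wells the 2 called lower became 4 with the median of wells, 1 with median-of-ratios size factors and 1 at a minimum fold of 4. In mature over committed wells the 4 called lower became 2 at a minimum fold of 4 (Sox6 and Tcf7l2), a change that follows from the stricter fold. For the other settings the cause was not tested. Single log2 ratios depended more on the setting: of 990, 482 moved by more than counting error of reads and 508 did not. None of a called factor changed sign, and the call of 24 of the 990 changed. No paired analysis was possible because the wells form 1 group and carry no replicate numbers that pair them. Depth limits Nkx2-2, St18, Sox6 and Myrf in non-lineage wells, which rest on 44, 58, 66 and 155 reads, and St18 in precursor wells, with 372 reads.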

Other observations

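In the 136 wells that met a lineage stage but carried at least 3 markers of another cell type, Olig1 had 3365 CPM in 50 precursor, 1754 in 10 committed and 1581 in 76 mature wells. Sox6 had 234, 175 and 29.6 CPM and Tcf7l2 83.0, 445 and 53.1 CPM in the same wells. Myrf had 42.2, 231 and 178 CPM and St18 3.20, 12.1 and 71.3 CPM. The 102 wells that met no class had a median of 96019 reads, and among them Olig1 reached 1408 CPM, Sox10 454 CPM and Tcf7l2 157 CPM.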
